A study of Mus musculus with 46 samples.

Results

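Translation factors and cytosolic tRNA synthetases were followed in mouse liver through the hours after surgery. The set holds every probe set (the group of oligonucleotides that reads 1 transcript) whose single gene symbol begins with Eif1, Eif2, Eif3, Eif4, Eif5, Eif6 or Eef, or names a cytosolic aminoacyl-tRNA synthetase. It came to 86 probe sets for 66 genes, out of 12422 probe sets tested and 8251 named genes. The rule itself used symbols only and no measured value, but the set was chosen with earlier results of these data known.

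All mice were male CB6F1 hybrids, either young (5 to 6 months) or old (25 to 27 months). The suppliers of the young and of the old mice differed, so age and supplier cannot be told apart. Unoperated livers served as the 0 h group. The operated mice either lost 70% of the liver (partial hepatectomy, PH) or had a sham operation, and their livers were collected 0.5, 1, 2 or 4 h later. In either age the 0 h group and every PH group have 3 arrays and every sham group has 2, which gives 46 arrays in 18 groups. Pooled over ages, each time therefore has 6 PH and 4 sham arrays against 6 at 0 h. Whether the arrays of a group stand for separate animals is not stated in the labels, and p-values here describe the spread between arrays, part of which may be technical.

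Initiation factors bring the ribosome and the initiator tRNA to the start codon of an mRNA, elongation factors carry the growing chain forward, and synthetases load each tRNA with its amino acid. A pair of control points is best known: phosphorylation of the factor eIF2 by stress kinases, which also favours translation of the transcription factor Atf4, and release of the cap-binding protein eIF4E from its binding proteins under mTOR signalling. The liver remnant makes large amounts of protein while it regrows, and hepatocytes also export most plasma proteins. Arrays measure mRNA levels, so neither phosphorylation nor translation rate is seen in the values below.

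Promoter sequence supplied from RefSeq (GRCm38.p6, 300 bases per promoter, most of them before a transcript start) was found for 51 of the 66 genes. A gene can have several such starts. The Aars and Eif4e windows below lie inside the spans of their genes. It was searched on both strands for the core of the C/EBP-ATF response element, TGATGNAA, through which Atf4 acts on amino acid genes, and for the E-box CACGTG, the site of Myc and related factors. The element core was present in 7 member genes, or 13.7% of those with a promoter, against 3.97% of all 32851 promoters and 4.51% of all genes. Its carriers were the synthetase genes Aars, Gars, Iars, Tars and Yars, the elongation factor kinase gene Eef2k and the eIF2 subunit gene Eif2s3x. The E-box was present in 13 member genes (25.5%), against 7.15% of promoters and 8.09% of genes. These were Aars, Eef2, Eef2k, Eif1b, Eif3a, Eif3f, Eif3k, Eif4a1, Eif4e, Eif4h, Eif5a, Iars and Tars, of which Eif3f and Eif4e had a probe set that rose at 4 h after PH, Eif3a and Tars fell, and the others were not called then. The windows shown are those of 3 synthetase genes with the element core, whose mRNAs did not move alike after PH, and of the 2 E-box carriers that had a probe set that rose at 4 h, chosen for that rise. Each is written 5′ to 3′ along the gene's strand, with the match in capitals. The matches in the synthetase genes lie on the opposite strand, so the capitals there are the reverse complement of the letters searched. The Tars promoter also has an E-box, at position 19 after the start and outside the window shown. The Aars promoter has an E-box at position -146 from the start, which does not overlap the element core shown, at position -112. A further element core of Aars lies at position 9, outside the window. A match is a description of the letters and not evidence of binding.
Aars, chr8:111033700-111033767, plus strand: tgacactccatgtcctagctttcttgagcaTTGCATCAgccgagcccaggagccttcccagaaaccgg
Gars, chr6:55037941-55038000, plus strand: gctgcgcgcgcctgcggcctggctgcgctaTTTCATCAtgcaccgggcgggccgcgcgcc
Tars, chr15:11399659-11399703, minus strand: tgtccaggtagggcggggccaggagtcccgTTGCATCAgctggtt
Eif4e, chr3:138527174-138527239, plus strand: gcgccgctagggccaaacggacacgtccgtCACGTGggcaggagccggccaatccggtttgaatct
Eif3f, chr7:108934317-108934382, plus strand: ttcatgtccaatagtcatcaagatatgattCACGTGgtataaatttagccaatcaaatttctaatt

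The deposited values are on a log2 scale, where a difference of 1 is a 2-fold change. Differences are given ± their standard error from 1 limma fit over all 46 arrays, and p-values are adjusted by the Benjamini-Hochberg method over all 12422 probe sets. A probe set is said to rise or fall only at an adjusted p under 0.05. No probe set's level is read as more or less mRNA than another's, because each has its own binding strength. Percentiles of mean level and words such as dim or brighter describe the signal only. In whole liver, fewer cells of a type and less RNA per cell cannot be told apart. The 16 sham arrays stood apart from the 0 h arrays over all genes, with 45.1% of all probe sets differing, so every comparison with sham below carries that offset. The actin 3′ control probe set ran from 11.3 to 12.2 in the sham arrays, from 12.1 to 13.1 in the PH arrays, and from 12.5 to 12.7 at 0 h apart from young 0 h replicate 3 at 10.8. The bacterial spike-in controls averaged 9.42 ± 0.11 (SD, n = 16) in the sham arrays, against SDs of 0.44 to 1.01 in the 0 h and PH arrays pooled by time. The part of either in the sham comparisons was not tested. The PH comparisons with 0 h at the 4 times share the same 6 arrays at 0 h.

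The set as a whole changed about as often as other genes. Against 0 h, limma called 0 of the 86 probe sets at 0.5 h after PH and 0 at 1 h, where 0.0886% and 3.72% of all probe sets were called. At an unadjusted p under 0.05 the counts were 6 and 12. At 2 h, 12 probe sets (14%) were called, against 12.8% of all. Of these, 9 were higher and 3 lower, against shares of 5.74% (higher) and 7.08% (lower) over all. At 4 h, 23 probe sets (26.7%) were called, against 23.5% of all. Of these, 12 were higher and 11 lower, where 11.5% of all were higher and 12% lower. Without young PH 4 h replicate 1, 15 of these calls were left in number. The median member difference was 0.04 at 2 h and 0.05 at 4 h, against -0.01 and 0.02 over all probe sets. At 2 h, 53 members (61.6%) had a positive difference against 45.6% of all probe sets. The factors called at 4 h thus moved in both directions, in nearly equal numbers.

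**Figure D1:**
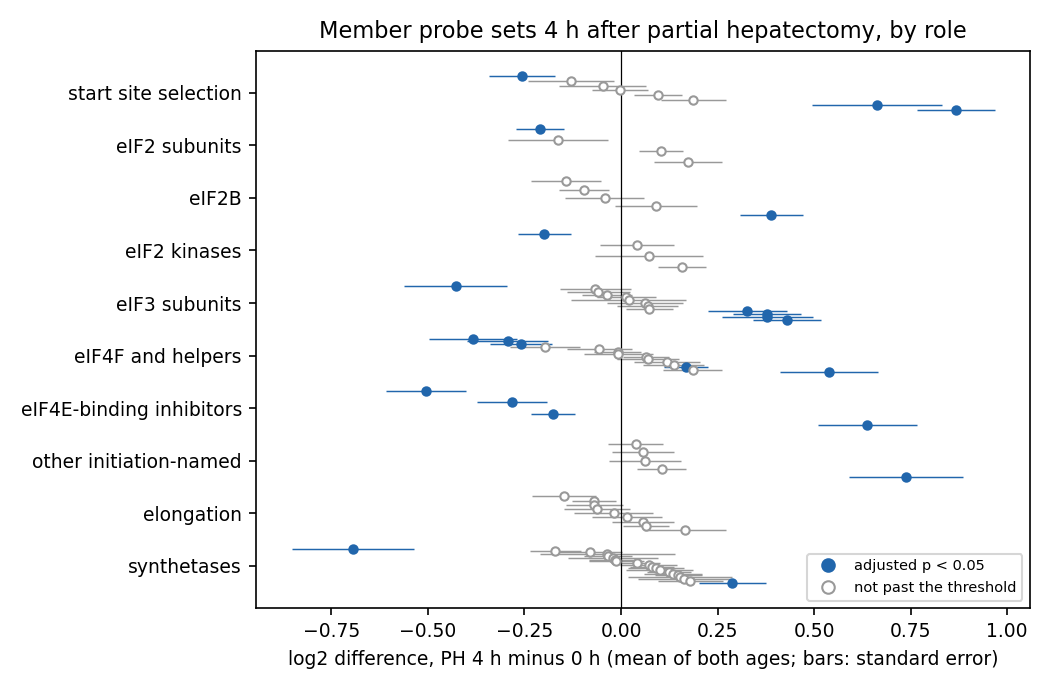
Log2 difference between PH at 4 h and 0 h (horizontal axis) for each of the 86 probe sets, grouped by role, with bars of 1 standard error; filled blue points have an adjusted p under 0.05. The highest is Eif1a at 0.87 and the lowest is Tars at -0.69, and the 9 elongation probe sets all lie near 0.

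Among the factors that choose the start codon, Eif1a stood highest. It encodes eIF1A, which helps the small ribosomal subunit scan to the start codon. On the probe set with the larger change (103708_at), the 6 arrays at 0 h ran from 7.25 to 7.50 with a median of 7.32. At 4 h after PH the young arrays read 7.996, 8.09 and 8.10 and the old arrays 8.30, 8.50 and 8.36. Every PH array at 4 h lay above every 0 h array, and the old arrays lay above the young ones. The difference was 0.87 ± 0.10 (limma adjusted p = 7.37e-08), and it stayed between 0.83 and 0.89 when each array was left out in turn. Sham arrays also stood high at 4 h, at 8.06 and 8.09 in young and 7.72 and 8.001 in old, and PH exceeded sham by 0.25 ± 0.11, which was not called (adjusted p = 0.0944). The brighter probe set of the gene (93058_at) ran from 7.66 to 8.29 at 0 h and from 8.35 to 9.02 at 4 h, again without overlap, and rose by 0.66 ± 0.17 (adjusted p = 0.00365). Its difference from sham at 4 h was 0.02 ± 0.19.

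The other start codon factors moved less or not in 1 direction. Eif5b encodes the factor that joins the ribosomal subunits. Its probe set 98142_at ran from 6.22 to 6.39 at 0 h and from 5.76 to 6.21 at 4 h, and fell by 0.26 ± 0.09 (adjusted p = 0.0278). Its other probe set, 98141_at, gave 0.10 ± 0.06 (adjusted p = 0.286), so the 2 probe sets of Eif5b differed in sign. Eif5, whose product triggers GTP hydrolysis by eIF2, gave 0.19, and the probe sets of Eif1ax, a close relative of Eif1a, gave -0.13 and -0.05. None of these 3 was called.

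In the eIF2 branch, 1 of 13 probe sets rose and 2 fell against 0 h at 4 h, where 11.5% of all probe sets rose and 12% fell. The complex eIF2 delivers the initiator tRNA, eIF2B recharges it, and 4 kinases inhibit it under stress. For Eif2b4, a subunit of eIF2B, the 0 h arrays ran from 7.90 to 8.08 and the PH arrays at 4 h from 8.32 to 8.55. The groups did not overlap, and the rise was 0.39 ± 0.08 (adjusted p = 0.000553). The 4 sham arrays at 4 h, at 8.37, 8.37, 8.45 and 8.54, covered the same levels, and PH minus sham was -0.04 ± 0.09 (adjusted p = 0.765). The other 4 eIF2B probe sets, of Eif2b1, Eif2b2 and Eif2b5, lay between -0.14 and 0.09 and were not called. Against sham at 4 h Eif2b1 was higher by 0.40 (adjusted p = 0.013), a call lost without young or old sham 4 h replicate 2, and over all times sham Eif2b1 differed from 0 h by -0.32 (adjusted p = 0.00355).

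For Eif2s2, the beta subunit of eIF2, probe set 160365_at ran from 4.65 to 4.83 at 0 h and from 4.42 to 4.62 at 4 h. Its groups did not overlap, and it fell by 0.21 ± 0.06 (adjusted p = 0.0128). Its second probe set, 97083_at, ran from 3.18 to 3.66 at 0 h and from 3.46 to 3.84 at 4 h, with a difference of 0.17 ± 0.09 (adjusted p = 0.164). The signs therefore disagreed, and both probe sets were dim, with mean levels at the 19th and 6.7th percentile of all probe sets. The X-linked gamma subunit gene Eif2s3x gave 0.10 and its Y-linked copy Eif2s3y gave -0.16, neither of them called. All 4 eIF2 subunit probe sets were lower in sham than at 0 h, where 19.3% of all probe sets were lower. Their differences ran from -0.43 (Eif2s3y, adjusted p = 0.00168) to -0.17 (Eif2s3x), with a median of -0.26. Against sham at 4 h, Eif2s2 was higher by 0.44 on 97083_at (adjusted p = 0.00148) and Eif2s3x by 0.22 (adjusted p = 0.0096). The Eif2s3x call was lost without young or old sham 4 h replicate 1.

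Of the 4 kinase genes, Eif2ak1, the haem-sensing kinase, fell by 0.20 ± 0.07 at 4 h (adjusted p = 0.0332). Eif2ak4, the GCN2 kinase that senses uncharged tRNA, gave 0.16 ± 0.06 (adjusted p = 0.0639). Eif2ak3, the PERK kinase of the endoplasmic reticulum, was called at 2 h and not at 4 h. Its 0 h arrays ran from 4.44 to 4.86 with a median of 4.75, and its PH arrays at 2 h from 4.66 to 5.58 with a median of 5.30. The groups overlapped, the difference at 2 h was 0.48 ± 0.14 (adjusted p = 0.0198), and at 4 h it was 0.07. Against sham at 2 h Eif2ak3 was higher by 0.52 (adjusted p = 0.0104).

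Of the 13 probe sets for 10 subunits of eIF3, the scaffold that holds the small ribosomal subunit, 4 rose and 1 fell at 4 h. The shares over all probe sets were 11.5% and 12%. Eif3d, whose product can bind the mRNA cap, ran from 8.54 to 8.81 at 0 h, from 8.85 to 9.32 at 2 h and from 8.75 to 9.21 at 4 h. It was higher by 0.32 ± 0.09 at 2 h (adjusted p = 0.0132) and by 0.38 ± 0.09 at 4 h (adjusted p = 0.00171). Its PH and 0 h arrays separated at 2 h and overlapped slightly at 4 h, and PH minus sham at 4 h was 0.05.

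Eif3j1, the loosely bound subunit that sits at the mRNA entry channel, was higher at both 2 h and 4 h. Its arrays ran from 7.87 to 8.32 at 0 h, from 8.46 to 9.06 at 2 h and from 8.32 to 8.74 at 4 h. The differences were 0.55 ± 0.12 at 2 h (adjusted p = 0.00139) and 0.38 ± 0.12 at 4 h (adjusted p = 0.0168). Against sham Eif3j1 was higher by 0.50, 0.44 and 0.64 at 0.5, 1 and 2 h, all called, and by 0.02 at 4 h, when the sham arrays had reached 8.35 to 8.60.

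Eif3f behaved differently from both. It ran from 6.82 to 7.32 at 0 h and from 7.19 to 7.71 at 4 h after PH, while the 4 sham arrays at 4 h lay between 7.03 and 7.13. Every PH array at 4 h was above every sham array, and the range at 0 h overlapped both. Eif3f was higher than 0 h by 0.33 ± 0.10 (adjusted p = 0.0184) and higher than sham by 0.36 ± 0.11 (adjusted p = 0.0227).

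Eif3a, the largest eIF3 subunit, was the 1 that fell. Its 0 h arrays read 6.91, 7.16 and 7.04 in young and 7.17, 7.19 and 6.53 in old, and its PH arrays at 4 h read 5.94, 6.69 and 6.76 in young and 6.92, 6.43 and 6.70 in old. The groups overlapped, with 1 low array at 0 h, and the lowest of all was young PH 4 h replicate 1. It fell by 0.43 ± 0.13 (adjusted p = 0.0168), and the change from 0.5 to 4 h within the PH livers was -0.57 ± 0.13 (adjusted p = 0.00188). Without young PH 4 h replicate 1 the difference from 0 h was -0.30 (adjusted p = 0.0909). For Eif3b, probe set 161743_i_at ran from 5.60 to 6.26 at 0 h and from 6.21 to 6.88 at 4 h and rose by 0.43 ± 0.09 (adjusted p = 0.000427). The brighter Eif3b probe set 93973_at gave 0.07 ± 0.06 (adjusted p = 0.423), and the suffix of the first marks an incomplete probe design, so the 2 probe sets of Eif3b did not give the same call. On 161743_i_at sham over all times was also above 0 h, by 0.35 (limma adjusted p = 0.00031). PH minus sham on that probe set was -0.59 at 1 h (adjusted p = 2.22e-05) and -0.36 at 2 h (adjusted p = 0.00525). At 4 h it was not called against sham.

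**Figure D2:**
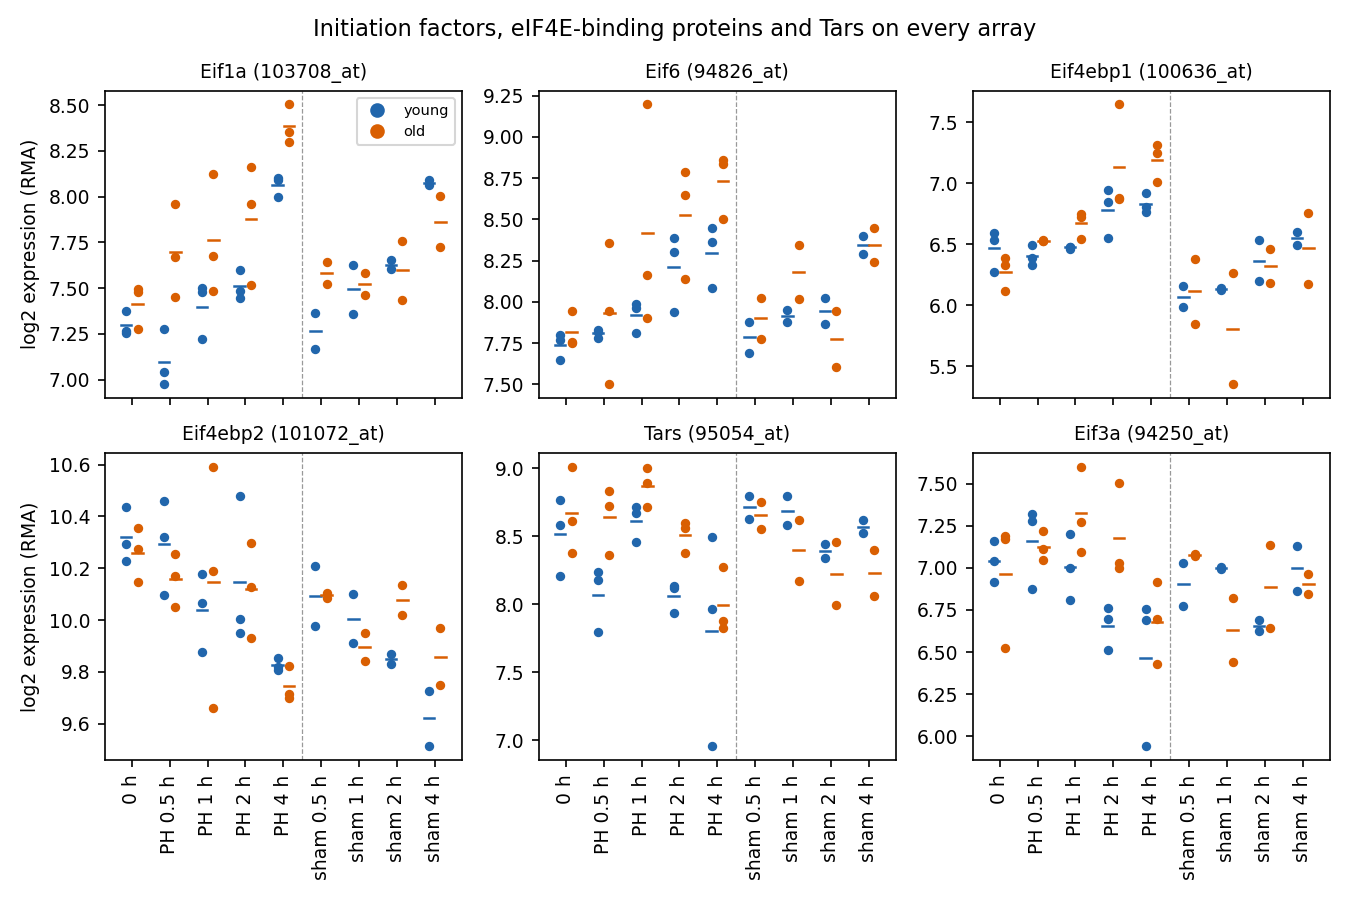
Log2 values of every array for 6 probe sets (Eif1a 103708_at, Eif6, Eif4ebp1, Eif4ebp2 101072_at, Tars and Eif3a) at 0 h and by time after PH or sham, young in blue and old in orange, with short lines at the group means. Eif1a climbs to between 7.996 and 8.50 at 4 h after PH, and single arrays stand away from their group, such as young PH 4 h at 6.96 for Tars.

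The cap-binding complex eIF4F and its helpers divided. The complex holds the cap-binding protein eIF4E, the helicase eIF4A and the scaffold eIF4G, and eIF4B and eIF4H assist the helicase. Of 14 probe sets, 2 rose and 3 fell at 4 h, where 11.5% of all rose and 12% fell. For Eif4e, probe set 162222_r_at read 5.21, 5.09 and 5.03 in young and 4.61, 4.66 and 4.61 in old at 0 h, and 5.38, 5.31, 5.58, 5.30, 5.20 and 5.67 at 4 h after PH. The groups met at 5.20 to 5.21. The rise was 0.54 ± 0.13 (adjusted p = 0.00183). At 0 h every old array lay below every young array. By age the rise was 0.77 in old mice (limma adjusted p = 0.00299), and in young mice the difference was 0.31 and not called. The age difference in that change was not called either. Against sham Eif4e was higher at every time, by 0.50, 0.76, 0.50 and 0.81 at 0.5, 1, 2 and 4 h, with the adjusted p at 4 h being 0.000115. Its second probe set, 99097_at, gave 0.07 ± 0.06 (adjusted p = 0.467), and both are dim, at the 24.7th and 14th percentile. The cap-binding relative Eif4e2 rose by 0.17 ± 0.06 on 96843_at (adjusted p = 0.0291) and gave -0.01 on 161911_f_at.

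The helicase gene Eif4a2 ran from 9.96 to 10.35 at 0 h, from 9.49 to 10.10 at 4 h after PH and from 9.44 to 9.62 in the 4 sham arrays at 4 h. It fell by 0.38 ± 0.11 (adjusted p = 0.0129), with 1 PH array inside the 0 h range. The sham arrays were lower still, and PH minus sham was 0.27 (adjusted p = 0.128). The scaffold gene Eif4g3 ran from 6.56 to 6.88 at 0 h and from 6.25 to 6.70 at 4 h and fell by 0.26 ± 0.08 (adjusted p = 0.0174). Against sham at 4 h Eif4g3 was higher by 0.36, the opposite direction, with the 4 sham arrays between 5.95 and 6.31.

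Eif4b has 4 probe sets, and these did not agree. On 161342_r_at it ran from 6.91 to 7.59 at 0 h, from 6.78 to 7.16 at 4 h after PH and from 6.17 to 6.66 over all 16 sham arrays. It fell by 0.29 ± 0.10 after PH (adjusted p = 0.0386) and fell by 0.86 ± 0.09 in sham against 0 h (adjusted p = 4.26e-09). On 100556_at the sham arrays ran from 4.22 to 5.00 against 3.93 to 4.20 at 0 h, a rise of 0.42 (adjusted p = 8.41e-06). Probe set 100558_at was also higher in sham, by 0.27 (limma adjusted p = 0.00423). Both of these are dim, at the 14.9th and 12.8th percentile, against the 63.6th for 161342_r_at. The brightest, 100557_g_at, fell by 0.38 in sham and gave -0.20 at 4 h after PH, which was not called.

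The genes for the eIF4E-binding proteins, which hold eIF4E away from the scaffold, moved in opposite directions. Eif4ebp1 ran from 6.12 to 6.59 at 0 h with a median of 6.35. Its young PH arrays read 6.94, 6.84 and 6.55 at 2 h and 6.92, 6.80 and 6.76 at 4 h, and its old PH arrays 7.64, 6.87 and 6.87 at 2 h and 7.01, 7.31 and 7.25 at 4 h. All 6 PH arrays at 4 h lay above all 0 h arrays, and all 3 old ones above all 3 young ones. Eif4ebp1 was higher than 0 h by 0.58 ± 0.13 at 2 h (adjusted p = 0.00184) and by 0.64 ± 0.13 at 4 h (adjusted p = 0.000307). Against sham it was higher by 0.37, 0.60, 0.61 and 0.50 at 0.5, 1, 2 and 4 h, with adjusted p-values of 0.0464, 0.0011, 0.00146 and 0.0102.

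Eif4ebp2 fell on all 3 of its probe sets. On 101072_at the 0 h arrays ran from 10.15 to 10.44 and the PH arrays at 4 h from 9.70 to 9.85. The groups lay well apart and the PH arrays were unusually close together. It fell by 0.50 ± 0.10 (adjusted p = 0.000426). The sham arrays at 4 h, at 9.73, 9.51, 9.97 and 9.75, were as low, PH minus sham was 0.05 (adjusted p = 0.809), and over all times sham fell by 0.35 from 0 h (adjusted p = 0.00127). Of the other Eif4ebp2 probe sets, 96729_at fell by 0.28 ± 0.09 (adjusted p = 0.0205) and 94353_at fell by 0.18 ± 0.06 (adjusted p = 0.0236).

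Eif6, whose product keeps the large ribosomal subunit from joining too early and takes part in its assembly, was higher at both 2 h and 4 h. It ran from 7.65 to 7.94 at 0 h, from 7.94 to 8.79 at 2 h and from 8.08 to 8.86 at 4 h after PH. The differences were 0.59 ± 0.15 at 2 h (adjusted p = 0.00655) and 0.74 ± 0.15 at 4 h (adjusted p = 0.000309). At 4 h all PH arrays lay above all 0 h arrays. The sham arrays reached 8.24 to 8.45 at 4 h but lay between 7.60 and 8.03 at 2 h. PH minus sham was 0.51 at 2 h (adjusted p = 0.0172) and 0.17 ± 0.16 at 4 h (adjusted p = 0.478). Eif5a, Eif2a and Eif2d lay between 0.04 and 0.11 at 4 h and were not called.

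None of the 9 elongation probe sets was called against 0 h at any time in limma, where 2, 1, 3 and 0 had an unadjusted p under 0.05 at 0.5, 1, 2 and 4 h. Of all probe sets, 12.8% were called at 2 h and 23.5% at 4 h. At 4 h they ran from -0.15 for Eef2k, the kinase that inhibits eEF2, to 0.17 ± 0.11 for Eef1g (adjusted p = 0.281), whose probe set is at the 1.5th percentile of brightness. Eef1a1 and Eef2, which bring the tRNA and move the ribosome, gave -0.07 and 0.02. Against sham the same genes looked different. At 0.5 h, where 15.4% of all probe sets were lower than sham, 7 of the 9 were: Eef1a1, Eef1a2, Eef1b2 (96624_r_at), Eef1d, Eef1g, Eef2 and Eef2k. At 4 h (12.2% of all lower) 4 were lower, with Eef1d at -0.52, Eef1b2 at -0.50, Eef2k at -0.42 and Eef1a2 at -0.25. The sham arrays themselves were above 0 h in 6 of the 9 probe sets, against 25.8% of all probe sets, among them Eef1d by 0.38, Eef2k by 0.33 and Eef2 by 0.20.

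**Figure D3:**
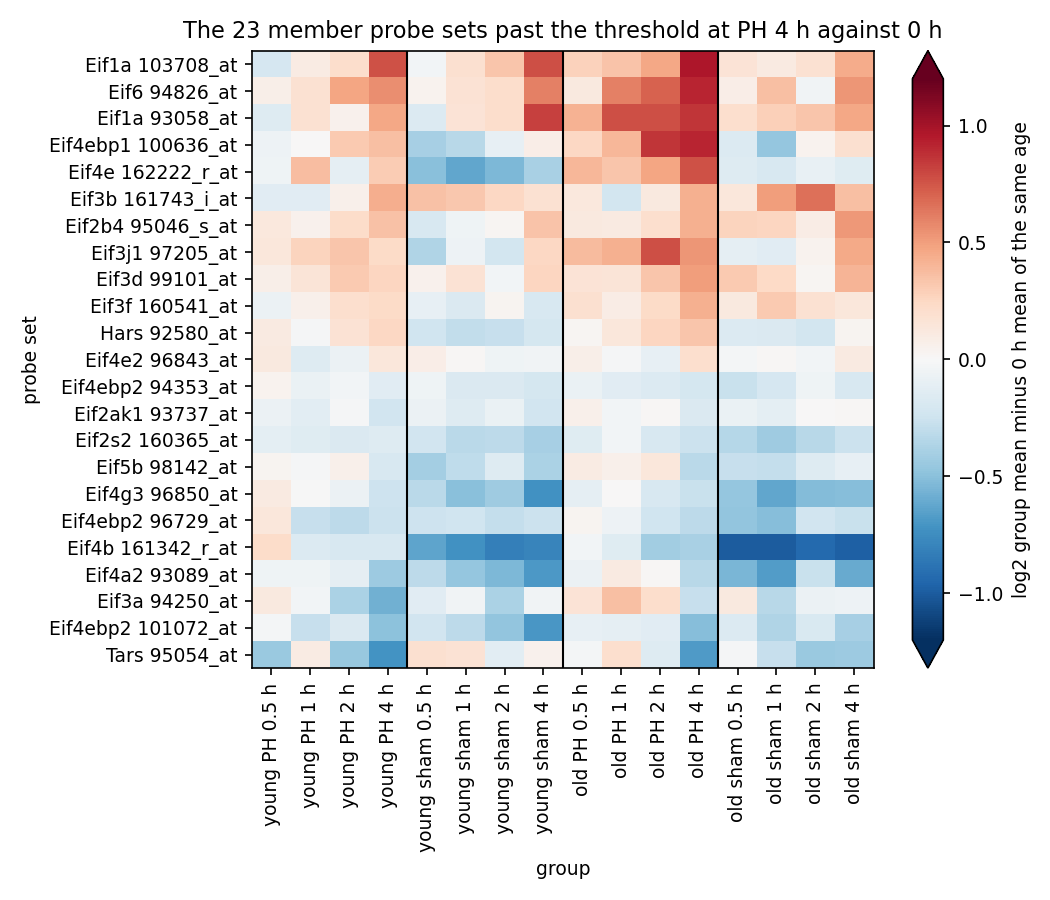
Heat map of the 23 probe sets called at 4 h after PH, as each operated group's mean minus the 0 h mean of its own age, on a log2 colour scale, for 16 operated groups. Eif1a and Eif6 are high in both PH and sham groups at 4 h, whereas Eif4ebp1, Hars and Eif4e are high in PH groups at 4 h and near 0 or lower in most sham groups.

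Of the 20 synthetase probe sets for 17 genes, 2 rose at 2 h, and 1 rose and 1 fell at 4 h. The shares of all probe sets were 5.74% higher at 2 h, and 11.5% higher and 12% lower at 4 h. The fall was that of Tars, the threonyl-tRNA synthetase gene. Its 0 h arrays read 8.58, 8.76 and 8.21 in young and 8.61, 9.01 and 8.38 in old, and its PH arrays at 4 h read 6.96, 7.96 and 8.49 in young and 8.27, 7.83 and 7.88 in old. Of the 6 PH arrays, 4 lay below all 0 h arrays and 2 within their range. Tars fell by 0.69 ± 0.16 (adjusted p = 0.00135), and without young PH 4 h replicate 1, at 6.96, the difference was -0.48. The sham arrays at 4 h lay between 8.06 and 8.62, and PH minus sham was -0.50 ± 0.18 (adjusted p = 0.0381).

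Hars, the histidyl-tRNA synthetase gene, rose. It ran from 6.16 to 6.48 at 0 h and from 6.42 to 6.74 at 4 h after PH, against 6.04 to 6.39 in the 4 sham arrays. The PH arrays lay above all sham arrays and 1 of them within the 0 h range. Hars was higher than 0 h by 0.29 ± 0.09 (adjusted p = 0.0136), and higher than sham at 0.5, 1, 2 and 4 h by 0.26, 0.30, 0.46 and 0.38, all called.

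Eprs, the gene of the bifunctional glutamyl-prolyl synthetase, was called against 0 h at 2 h and not at the other times. It ran from 6.70 to 7.22 at 0 h, from 7.30 to 7.64 at 1 h, from 7.36 to 7.83 at 2 h and from 6.61 to 7.12 at 4 h. The 1 h and 2 h arrays lay above all 0 h arrays, and the 4 h arrays were back in their range. The differences were 0.48 at 1 h (adjusted p = 0.116), 0.57 ± 0.17 at 2 h (adjusted p = 0.0257) and -0.04 at 4 h. Against sham Eprs was higher by 0.78, 1.19 and 1.03 at 0.5, 1 and 2 h, with adjusted p-values of 0.00324, 1.9e-05 and 0.000211, and by 0.18 at 4 h. Over all times sham Eprs differed from 0 h by -0.47 (adjusted p = 0.0084), and 1 sham array, old sham 1 h replicate 2, read 5.15.

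Aars, the alanyl-tRNA synthetase gene, ran from 8.36 to 8.58 at 0 h and from 8.57 to 8.78 at 2 h and was higher by 0.20 ± 0.06 (adjusted p = 0.0148), then by 0.12 at 4 h. Nars, for asparagine, gave 0.37 ± 0.12 at 1 h (adjusted p = 0.0647) and was higher than sham by 0.46, 0.71 and 0.64 at 0.5, 1 and 2 h. Iars, for isoleucine, gave 0.22 at 2 h against 0 h (adjusted p = 0.0933) and was higher than sham by 0.41 at 1 h and 0.57 at 2 h. Thus of the 3 synthetase genes whose windows were printed, Aars rose at 2 h, Tars fell at 4 h, and Gars, for glycine, gave 0.02 at 2 h and -0.01 at 4 h, neither called.

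**Figure D4:**
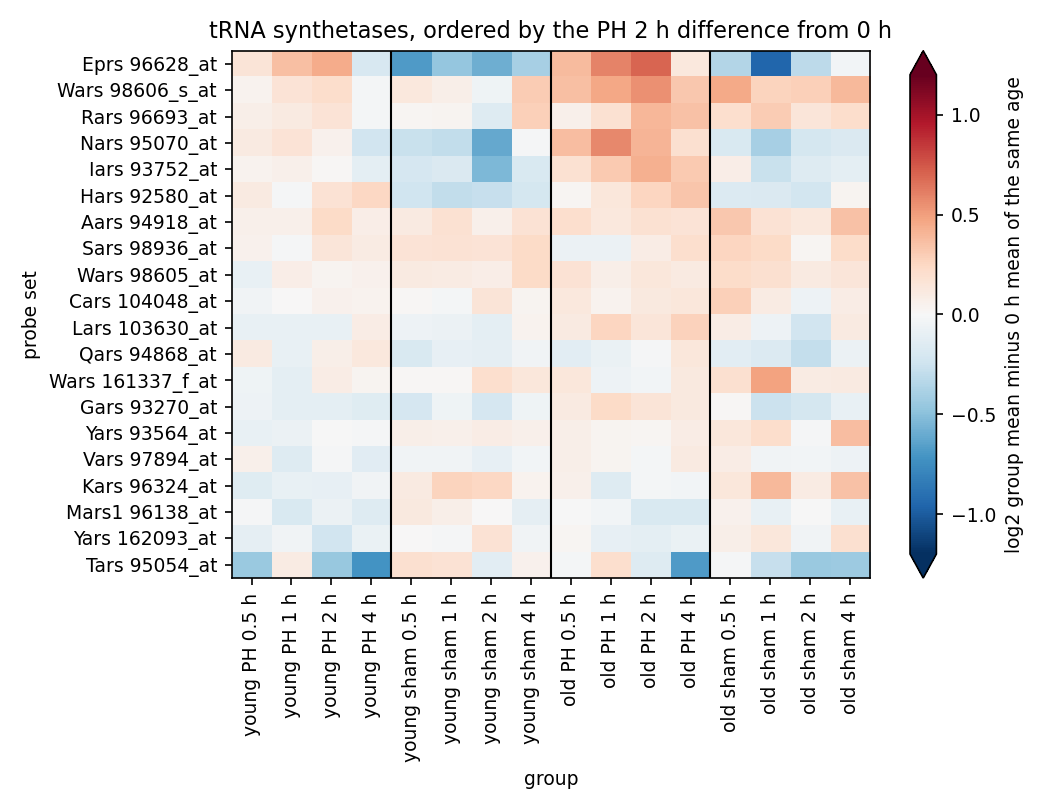
Heat map of the 20 synthetase probe sets, ordered by their difference between PH at 2 h and 0 h, as each operated group's mean minus the 0 h mean of its own age on a log2 colour scale. Eprs is high in PH groups at 1 and 2 h and low in sham groups, and Tars is lowest in the PH groups at 4 h.

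Several calls against 0 h rested on single arrays. At 4 h, Eif4a2 gave -0.31 without young PH 4 h replicate 1 (limma adjusted p = 0.0568), and Eif3j1 gave 0.33 without old 0 h replicate 3 (adjusted p = 0.0529). Eif3f gave 0.26 to 0.29 and lost its call without old 0 h replicate 2, young PH 4 h replicate 3 or old PH 4 h replicate 3. Eif3a gave -0.38 to -0.37 and lost its call also without old 0 h replicate 1 or 2 or old PH 4 h replicate 2. Eif4g3 gave -0.23 to -0.19 and lost its call without young 0 h replicate 2, young PH 4 h replicate 1 or old PH 4 h replicate 3. Eif4e2 (96843_at) gave 0.14 to 0.15 and lost it without young or old 0 h replicate 2, young PH 4 h replicate 1 or old PH 4 h replicate 3. For Eif4ebp2, 96729_at lost it without young 0 h replicate 2 (-0.23) or young PH 4 h replicate 3 (-0.25). Its probe set 94353_at gave -0.17 to -0.15 and lost it without any of 4 arrays (replicate 1 of either 0 h group or of young PH 4 h, and replicate 2 of old 0 h). The calls of Eif5b, Eif2ak1 and Eif4b were lost without any of 6, 7 and 8 of the 12 arrays compared, including young PH 4 h replicate 1 and old PH 4 h replicate 3 for all 3, with values from -0.25 to -0.20, -0.19 to -0.15 and -0.30 to -0.19. The calls of Eif1a, Eif6, Eif4ebp1, Eif4e, Eif3b, Eif2b4, Eif3d, Hars, Tars, Eif2s2 and 101072_at of Eif4ebp2 held without each of the 12 arrays.

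The 2 h result was less firm. The count of 12 became 4 without old PH 2 h replicate 3, and it became 16 when replicate 2 of that group was left out. Leaving out old 0 h replicate 2 made it 7. When the mean level of the bacterial spike-in controls entered the limma fit as a covariate, 0 members were called at 2 h. Those controls averaged 9.74 ± 0.70 (SD, n = 6) at 0 h, 8.31 ± 0.53 at PH 1 h, 8.35 ± 0.44 at PH 2 h and 10.03 ± 0.53 at PH 4 h. With the covariate the 2 h differences were 0.45 for Eif6 (adjusted p = 0.212), 0.48 for Eif4ebp1 (0.1), 0.44 for Eif3j1 (0.101), 0.42 for Eif1a (0.058) and 0.32 for Eprs (0.514). At 4 h, 24 members were called with it. The part of the spike-in level in the 2 h result was not tested further. Leaving out 1 array, Eif6, Eif4ebp1 and Eif3j1 kept their 2 h calls throughout. Eif2ak3 lost its call without any of 4 arrays (replicate 1 of either PH 2 h group, old 0 h replicate 2 and young 0 h replicate 3), at 0.36 to 0.44. Eprs lost it without young 0 h replicate 1 or 2, old 0 h replicate 1 or 3, young PH 2 h replicate 2 or old PH 2 h replicate 3, at 0.52 to 0.57. Eif3d (0.25) and Aars (0.17) lost it without old PH 2 h replicate 3. Eif1a (103708_at), at 0.34 ± 0.10 (adjusted p = 0.022), lost it without any of 4 arrays (replicate 1 of either PH 2 h group, old PH 2 h replicate 3 and old 0 h replicate 2), at 0.27 to 0.32. Eif3l (96942_at), another eIF3 subunit gene, gave 0.22 ± 0.06 at 2 h (adjusted p = 0.0207) and 0.18 to 0.20 without old 0 h replicate 2, young PH 2 h replicate 1 or old PH 2 h replicate 3, when it was not called. The 3 probe sets that fell at 2 h, 161342_r_at of Eif4b, 96729_at of Eif4ebp2 and 160365_at of Eif2s2, lost their calls without 9, 7 and 9 of the 12 arrays, with values from -0.33 to -0.20, -0.28 to -0.23 and -0.20 to -0.16.

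Against sham at the same time, members again followed the background. The counts called were 29 (33.7%) at 0.5 h, 40 (46.5%) at 1 h, 34 (39.5%) at 2 h and 19 (22.1%) at 4 h, where 29.2%, 43.5%, 34.8% and 23.5% of all probe sets were called. At 0.5 h, 17 were higher and 12 lower, where 13.8% of all were higher and 15.4% lower. The direction was uneven at 2 h, with 25 higher and 9 lower where 13.9% of all were higher and 20.9% lower, and 57 members (66.3%) were positive there against 44.3% of all. Synthetases, 20 of the 86 probe sets, supplied 6 of the 25, the genes Eprs, Gars, Hars, Iars, Nars and Qars. They also supplied 2 of the 9 lower, Kars (-0.23, limma adjusted p = 0.00968) and 162093_at of Yars (-0.24, 0.0475). The Yars call was lost without any of 7 of the 10 arrays compared. Kars was also lower than sham at 1 h (-0.45, adjusted p = 7.38e-06) and at 4 h (-0.23, 0.014), and sham Kars was above 0 h by 0.20 (0.00162). At 4 h, 11 were higher (11.3% of all probe sets), led by Eif4e (0.81), Eif1ax (0.63), 161342_r_at of Eif4b (0.59) and Eif4ebp1 (0.50). Another 8 were lower (12.2% of all), led by Eef1d (-0.52), Eef1b2 (-0.50) and Tars (-0.50). Some of these calls were lost when single arrays were left out. At 4 h Eif4ebp1 lost its call without old sham 4 h replicate 1 (0.36), Eif3f lost it without any of 5 of the 10 arrays compared and Tars without any of 6, with Tars at -0.29 without young PH 4 h replicate 1. At 2 h Eif6 and Eif2ak3 lost their calls without young or old sham 2 h replicate 2 and with the spike-in covariate, and at 0.5 h Eif4ebp1 lost it without any of 9 of the 10 arrays. Without old sham 2 h replicate 2 the 2 h count was 19, and without young sham 0.5 h replicate 1 or old sham 0.5 h replicate 2 the 0.5 h count was 16 or 18.

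Between the sham and the 0 h arrays 45 of the 86 members (52.3%) differed, against 45.1% of all probe sets. Of these, 22 were higher and 23 lower, where 25.8% of all were higher and 19.3% lower. Eif1ax (160111_at) ran from 5.56 to 6.64 in the 16 sham arrays, with a median of 6.19, against 6.58 to 7.02 at 0 h, and differed by -0.63 (adjusted p = 3.09e-06). Eef1b2 (96624_r_at) ran from 8.22 to 8.61 against 7.72 to 8.11 and was higher by 0.55 (adjusted p = 1.09e-07), while its other probe set 102107_at gave -0.04. The sham arrays of Eef1b2 did not overlap 0 h and those of Eif1ax overlapped only at their upper end. Eif4a2 and Eif4g3 were each at -0.51. For Eif4g3 the PH minus sham value and the PH minus 0 h value at 4 h had opposite signs, as given above.

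The next comparisons use no 0 h array. Within the PH livers, 20 members (23.3%) differed between 4 h and 0.5 h, 10 in each direction, against 20.4% of all (8.2% higher and 12.2% lower), and 13 without old PH 4 h replicate 3. Eif1a (103708_at) rose by 0.83 ± 0.10 (adjusted p = 2.1e-07). Of the 9 elongation probe sets, 1 was higher, Eef1a2 (0.21, limma adjusted p = 0.0115), and 1 lower, Eef1akmt1 (-0.24, 0.0184). The Eef1akmt1 call was lost without old PH 4 h replicate 3. The change from 0.5 to 4 h in PH minus that in sham, in which a constant sham offset cancels, gave 0 calls among members in limma and 1.58% among all probe sets, with 9 members at an unadjusted p under 0.05. The lowest adjusted p was 0.0907, for 96729_at of Eif4ebp2 (-0.47 ± 0.14). For Eif1a this value was 0.28 ± 0.16 (adjusted p = 0.433).

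In young mice 4 members (4.65%) were called at 4 h after PH and in old mice 13 (15.1%), against 7.66% and 14.9% of all probe sets. The 4 in young mice were Eif1a (103708_at) and Eif3b (161743_i_at), higher, and Tars and 101072_at of Eif4ebp2, lower, where 3.28% of all were higher and 4.39% lower. Eif1a rose by 0.76 ± 0.14 in young (adjusted p = 0.00055) and by 0.97 ± 0.14 in old (adjusted p = 9.73e-06). Tars fell by 0.71 in young (adjusted p = 0.0441) and by 0.68 in old (adjusted p = 0.0377). The Tars call was lost without any of 4 of the 6 arrays in either age, and the difference in young was -0.29 without young PH 4 h replicate 1. The young call of Eif4ebp2 was lost without any 1 of its 6 arrays, and that of Eif3b without any of 3. Eif4ebp1 gave 0.36 ± 0.18 in young (adjusted p = 0.253) and rose by 0.92 ± 0.18 in old (adjusted p = 0.000559). The difference between those changes was 0.56 ± 0.25 with an adjusted p of 1.

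No age difference in the response was called. The interaction at 4 h gave 0 calls in limma among members and 0% among all probe sets, with 4 members at an unadjusted p under 0.05. Of the 86 members, 65 (75.6%) had a more positive change in old than in young mice, against 58.8% of all probe sets. At 0 h, 0 members differed between ages in limma, against 0.145% of all, with 4 at an unadjusted p under 0.05. The young count was 1 without young 0 h replicate 1 and 2 without young 0 h replicate 2 or 3 or young PH 4 h replicate 1 or 2. The old count was 6 without old 0 h replicate 2, and leaving out old PH 4 h replicate 3 made it 7.

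**Figure D5:**
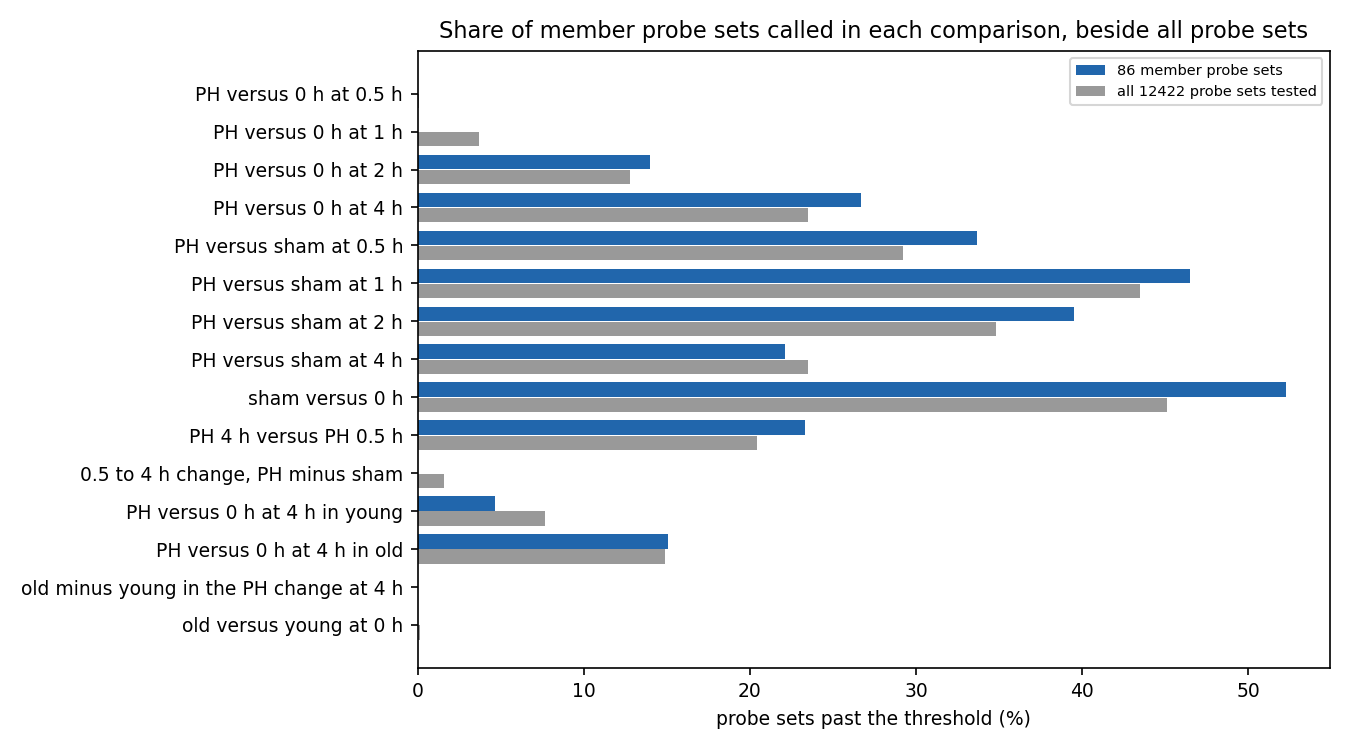
Bars from 0 of the percent of probe sets called at an adjusted p under 0.05 in each comparison, for the 86 members and for all 12422 probe sets. The member share is above that of all probe sets in some comparisons and below it in others. Examples are 26.7% against 23.5% at 4 h after PH, 52.3% against 45.1% for sham against 0 h, and 4.65% against 7.66% in young at 4 h.

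Cell markers were read beside these results. Hepatocyte markers (9 genes measured, among them Alb and Ttr) summed to between 15.8 and 16.1 on the log2 scale over all arrays, and at 4 h after PH 1 of their 10 probe sets rose (Tat, 0.88) and none fell. Of 11 neutrophil probe sets 3 rose at 4 h, S100a8 (1.63), S100a9 (1.59) and Csf3r (0.27), and 0 of 11 macrophage probe sets were called in limma, with 0 at an unadjusted p under 0.05. Of 4 endothelial probe sets Cdh5 rose (0.50) and Kdr (-0.27) and Tek (-0.36) fell. At 4 h, 11.5% of all probe sets rose and 12% fell. The summed neutrophil level ran from 9.83 to 10.1 at 0 h and from 9.93 to 10.3 at 4 h. Old PH 1 h replicate 3 had the highest summed macrophage (11.3) and neutrophil (12.0) levels of all arrays, and within its group it was also highest for Eif6 (9.20), Eif1a (8.13 on 103708_at), Nars (8.70) and Eif2ak3 (5.90). These genes were picked from the 86 members, and 1 of the 3 arrays of a group is always highest. How many other members were highest on that array was not counted. At 2 h after PH, 3 of the 10 hepatocyte probe sets fell and 1 rose against 0 h, where 7.08% of all fell and 5.74% rose. Another comparison, with sham at 2 h, had 4 of the 10 lower, against 20.9% of all. In sham against 0 h, 5 of 11 neutrophil, 4 of 11 macrophage and 7 of 20 B cell probe sets were higher and 0 of each lower. There 3 of 4 endothelial probe sets were lower, and hepatocyte probe sets were 3 higher and 2 lower. In that comparison 25.8% of all probe sets were higher and 19.3% lower. The part of other cell types in the member results was not tested.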

How the data were processed

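Whole-liver RNA was measured on Affymetrix U74 version 2 mouse arrays. Per the submitters' processing notes, the authors used RMA and deposited its log2 values. RMA is a method that corrects background, normalises arrays to 1 distribution and combines the probes of a set. The sources used here give neither its version nor the arrays that were normalised as 1 batch, and the values were used as they stood. Array medians ran from 6.22 to 6.33. Precision is limited by the number of arrays.

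A linear model with a mean per group (lmFit and eBayes of limma 3.58.1, R 4.3.3, with 28 residual and 5.09 prior degrees of freedom) was fitted to all 46 arrays. The 66 control probe sets were left out of tests. Contrasts were adjusted over 12422 probe sets and called at 0.05, and the fit was tested on simulated data. Symbols came from the platform annotation. All 86 identifiers were found in the RefSeq gene table (GRCm38.p6) with 0 symbols changed, and 1 probe set with several symbols was not used.

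The members, gene lists, motifs and comparisons were chosen with earlier results of these data known, and the age differences at 0.5, 1 and 2 h were added after seeing the data. The plan was to name up to 15 called members per direction and comparison and the highest and lowest of each role at 4 h. Not all of these are given above, for example Eif4g2 and Wars in the comparisons with sham. Alternatives were median centring, leaving out the dimmest 25% of probe sets, trend and robust eBayes, the compared groups alone, the replicate number as a block, array weights, the spike-in mean as a covariate, leaving out 2 arrays that stood apart, and leaving out each array. Replicate numbers did not pair arrays across groups: deviations of arrays with the same number had a mean correlation of 0.00600, and those with different numbers -0.00287.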

Additional observations from a re-analysis of the deposited data

How the results depend on the processing

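Counts of called members in limma moved by over 1.5 times under few settings. With array weights they were 5 (PH against 0 h at 1 h), 22 (2 h), 30 (PH against sham at 4 h), 4 (change from 0.5 to 4 h in PH minus sham), 21 (old at 4 h) and 5 (old against young at 0 h). With the compared groups alone they were 2 at 1 h and 1 for the PH minus sham change. With the spike-in covariate they were 0 at 2 h, 21 for PH against sham at 2 h and 1 in young at 4 h, and without 2 arrays that stood apart 2 in young. The causes were not tested.

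Leaving out each array gave 0 to 0, 0 to 4, 4 to 16 and 15 to 23 calls against 0 h at 0.5, 1, 2 and 4 h. Against sham it gave 16 to 30, 29 to 40, 19 to 35 and 15 to 22. It gave 33 to 44 for sham against 0 h, 13 to 20 for PH at 4 h against 0.5 h, and 0 to 1 for the PH minus sham change. It gave 1 to 5 in young, 6 to 11 in old, 0 to 0 for the age difference at 4 h and 0 to 0 between ages at 0 h. The 4 calls at 1 h came without old PH 1 h replicate 1, and 1 call came without replicate 2. The 1 call of the PH minus sham change came without young sham 0.5 h replicate 2. Eif2a (93841_at), 0.04 and not called at 4 h, ran up to 0.0710 without old 0 h replicate 1, and turned to -0.00103 (adjusted p = 0.995) without young PH 4 h replicate 2 and to -0.00725 (0.958) without old PH 4 h replicate 2.

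With the replicate number as a block, 23 members were called at 4 h, 11 at 2 h, 3 in young and 13 in old. The labels do not say what arrays with the same number share. Every same-numbered correlation exceeded 0.1 in 13 of 153 group pairs, so same-numbered arrays were not taken as pairs.

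Over single named members and settings other than leaving out an array, 1536 values kept direction and side of the threshold, 99 lost the call and 2 gained it. With an array left out these numbers were 2199, 292 and 1, and 2 turned sign.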

Other observations

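Regulators of translation outside the set were also measured at 4 h after PH against 0 h. Of 26 probe sets for 20 genes of mTOR and stress control, 7 rose and 5 fell, where 11.5% of all probe sets rose and 12% fell. Pdcd4, whose product inhibits the helicase eIF4A, fell by 1.18 ± 0.14 (limma adjusted p = 1.71e-07), and its difference from sham at 4 h was -0.59 ± 0.16 (adjusted p = 0.00752). Ddit4, an inhibitor of mTOR signalling, rose by 1.51 ± 0.37 (adjusted p = 0.00244). Mknk2, a kinase of eIF4E, rose by 0.76 and 0.47 on its 2 called probe sets. Atf4, the transcription factor of the amino acid response, rose by 0.28, and Ppp1r15a, which helps remove the phosphate of eIF2, rose by 0.32. The mTOR gene itself, Mtor, rose by 0.38 and 0.16. Atf5, Sesn1 and Akt1s1 fell, with differences of -0.68, -0.62 and -0.43. Asns, Ddit3 and Trib3, other genes of the amino acid response, were not called. Against sham at 4 h, 6 of the 26 probe sets were higher and 2 lower, where 11.3% of all were higher and 12.2% lower. In sham against 0 h, 5 were higher and 7 lower, where 25.8% of all were higher and 19.3% lower.

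Of 29 probe sets for 20 genes of other translation proteins, 10 rose and 4 fell, where 11.5% of all probe sets rose and 12% fell. Of the 10 rises, 5 are probe sets of 1 gene, Etf1. It encodes the termination factor that recognises stop codons, and Etf1 rose on 5 of 5 probe sets, by 0.31 to 0.53. Ddx3x, an RNA helicase, rose by 0.96 and 0.78. The genes that fell were Mtif2 and Tufm, mitochondrial initiation and elongation factors, at -0.61 and -0.27, Paip2, an inhibitor of the poly(A)-binding protein, at -0.56, and Tars2, the mitochondrial threonyl-tRNA synthetase, at -0.21. Against sham at 4 h none of these falls was called: 9 of the 29 probe sets were higher and 0 lower, where 11.3% of all were higher and 12.2% lower. In sham against 0 h, 2 were higher and 13 lower, where 25.8% of all probe sets were higher and 19.3% lower.

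The age difference in the PH change gave 0 called members in limma at 0.5, 1 and 2 h as well, with 4, 5 and 7 at an unadjusted p under 0.05.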
